A study of Mus musculus with 4 samples.

Results

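Zfp genes are the mouse genes named for the zinc finger protein they encode, in most cases a protein that binds DNA through a row of zinc-holding loops. The 277 genes described here were chosen by 2 criteria, a symbol made of Zfp and a digit and a mean log2 expression value over the 4 arrays of at least 7.48. Zfp36, Zfp36l1 and Zfp36l2, which encode RNA-binding proteins that destabilise mRNA, were left out. In all, 344 Zfp symbols were the only symbol of at least 1 probe set, so 67 lay under the filter. The whole array gave 19938 genes, of which 13975 passed the same filter and were fitted. Where a gene had several probe sets, as 12 of the 277 did, the one with the highest mean stood for it.

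The tissue was small intestine of C57BL/6 mice, and its total RNA was labelled with biotin and read on 4 Affymetrix arrays. Of these, 2 came from wild-type mice, titled XX and XY, and 2 from CFLARs Tg mice, titled XCFX and XCFY. Going by the name, the transgene encodes the short protein form of Cflar, also called cFLIP, which restrains caspase-8. The design asks how the transcriptome of the intestine differs between the genotypes, within work on necroptosis in the gut epithelium and ileitis. The promoter of the transgene, the cells in which it is active, its copy number, the age of the mice, the stretch of intestine and the number of animals behind an array are not given in the sources used here. Here, the XX and XCFX arrays are wild-type replicate 1 and CFLARs Tg replicate 1, and the XY and XCFY arrays are the replicates 2. The p-values therefore rest on a spread between samples that includes any difference between the title types and may be partly technical.

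As background, the largest class of these proteins, joins a KRAB domain to an array of C2H2 zinc fingers. The fingers bind chosen DNA sequences, often in transposable elements, and the KRAB domain recruits the corepressor Trim28 (KAP1) with the histone methyltransferase Setdb1, which keeps such DNA silent. KRAB genes have multiplied by local duplication, so many lie side by side in clusters and resemble each other. Other Zfp genes carry no KRAB domain and act as activators, RNA-binding proteins, ribosome assembly factors or ubiquitin ligases. Near-identical copies may share probe sequences, so clustered genes are not independent measurements and a value may hold signal from a neighbour. A further 40 probe sets that the annotation gives to several symbols, at least 1 of them a Zfp symbol, were not used.

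The run of neighbouring Zfp genes with the most fitted members, 14, lies on chromosome 13, and all of them had lower values in CFLARs Tg, so the promoters of that run are shown first. A run is taken here as Zfp genes with at most 2 other protein-coding genes between them in the RefSeq gene table of GRCm38.p6. RefSeq promoters (250 bases before to 50 after the annotated start) were on hand for 12 of the 14 fitted genes of the run, and each held the letters TGGGANNTGTAGT or, on the other strand, ACTACANNTCCCA. The letters were read off these promoters after they had been looked at, so the 12 of 12 is how they were found and not a result. The lines give the stretch of 37 bases around the match, 5′ to 3′ on the strand of the gene, with the match in capitals.
Zfp708, chr13:67081574-67081610 (- strand): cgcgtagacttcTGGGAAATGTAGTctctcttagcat
Zfp455, chr13:67194437-67194473 (+ strand): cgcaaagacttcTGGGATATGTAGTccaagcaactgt
Zfp458, chr13:67269149-67269185 (- strand): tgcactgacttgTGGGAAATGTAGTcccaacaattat
Zfp457, chr13:67306468-67306504 (- strand): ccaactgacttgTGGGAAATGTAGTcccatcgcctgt
Zfp595, chr13:67332588-67332624 (- strand): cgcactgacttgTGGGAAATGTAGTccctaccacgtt
Zfp953, chr13:67360624-67360660 (- strand): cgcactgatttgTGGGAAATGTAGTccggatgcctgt
Zfp456, chr13:67375809-67375845 (- strand): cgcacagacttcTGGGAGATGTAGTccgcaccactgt
Zfp874a, chr13:67451634-67451670 (- strand): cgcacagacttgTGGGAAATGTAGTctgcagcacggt
Zfp58, chr13:67500530-67500566 (- strand): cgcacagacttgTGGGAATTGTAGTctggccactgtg
Zfp748, chr13:67553155-67553191 (- strand): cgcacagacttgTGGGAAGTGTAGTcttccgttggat
Zfp729a, chr13:67637792-67637828 (- strand): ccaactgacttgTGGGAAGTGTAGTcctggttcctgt
Zfp738, chr13:67683545-67683581 (- strand): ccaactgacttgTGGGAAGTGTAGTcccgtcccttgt
Coordinates are those of GRCm38.p6. The match ended between 14 bases (Zfp748) and 166 bases (Zfp458) before the annotated start, so the stretches are promoter sequence outside the gene. A site with the letters ACTACA in this arrangement is known in the literature as one that Zfp143 binds, but Zfp143 had no probe set of its own here and no binding was measured.

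Zfp genes lay lower in the CFLARs Tg intestine than in wild-type far more often than higher, by small amounts. Of the 277, 220 (79.4%) had a lower mean in CFLARs Tg, against 52.4% of all genes fitted. The median log2 difference (CFLARs Tg minus wild-type) was -0.11, against -0.01 over all genes fitted. The middle range of the Zfp genes, from the lower to the upper quartile, ran from -0.23 to -0.02, and that of all genes from -0.17 to 0.13. In the extremes the Zfp genes were the narrower set: their differences ran from -0.67 to 0.43, and 7 of them (2.53%) exceeded 0.5 in size, against 11.1% of all genes.

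With limma's moderated test at an adjusted p under 0.05 over all genes, 42 of the 277 Zfp genes (15.2%) fell in CFLARs Tg, where 10.9% of all genes did. In the same fit 4 Zfp genes (1.44%) rose, where 8.44% of all genes did. The Zfp genes were taken up with these differences known, so the counts describe the set and no test of the set is given. The 2 CFLARs Tg arrays lay below both wild-type arrays for 165 Zfp genes (59.6%), where 37.6% of all genes did so. They lay above both wild-type arrays for 26 (9.39%), where the share over all genes was 32.0%. For the others the arrays of the genotypes overlapped. The calls depend on which arrays enter, and leaving out 1 array leaves its genotype with 1. Without wild-type replicate 1 or without wild-type replicate 2, the calls of Zfp genes were lost. Without CFLARs Tg replicate 1 or without CFLARs Tg replicate 2, there were more of them. Calls over all genes changed in the same direction. The median stayed between -0.12 and -0.11 in these 4 fits.

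**Figure D1:**
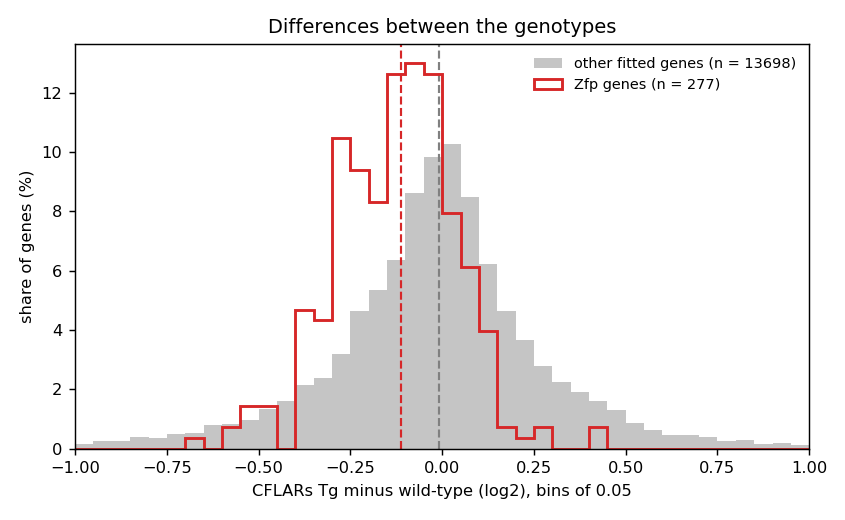
Share of genes (%, vertical axis) by difference between the genotypes (CFLARs Tg minus wild-type, log2, bins of 0.05, horizontal axis), for the 277 Zfp genes (red outline) and the other 13698 fitted genes (grey). Dashed lines mark the medians, -0.11 for the Zfp genes and -0.01 for the others; differences beyond 1 in size are not drawn.

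The median lay below 0 in each range of expression level. Divided by mean level into 3 groups of 92 or 93, the Zfp genes had medians of -0.11, -0.11 and -0.12 from the lowest to the highest group. All fitted genes of the same ranges of level had medians of 0.00, -0.01 and -0.01. The calls were 16 lower and 0 higher in the lowest group, 15 and 2 in the middle group and 11 and 2 in the highest. As shares, 17.2%, 16.3% and 11.96% of the Zfp genes fell, against 7.22%, 11.2% and 12.5% of all fitted genes in the same ranges, so in the highest group the share was near that of all genes. As a set the Zfp genes were expressed at lower levels than most, with a median of 8.77 against 9.39 for all genes fitted.

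The size of the shift can be set beside the spread between arrays of 1 genotype. Over the Zfp genes, wild-type replicate 2 minus replicate 1 had a median of -0.03 with an SD of 0.08 across genes, and CFLARs Tg replicate 2 minus replicate 1 a median of 0.02 with an SD of 0.12. The genotype difference had a median of -0.13 between the XCFX and XX arrays and of -0.09 between the XCFY and XY arrays. Both pairs were lower for 182 Zfp genes (65.7%, against 41.1% of all genes), both were higher for 35 (12.6%, against 35.8%), and the pairs had opposite signs for 60. Each pair is 1 array against 1, so these values have no replicate check.

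**Figure D2:**
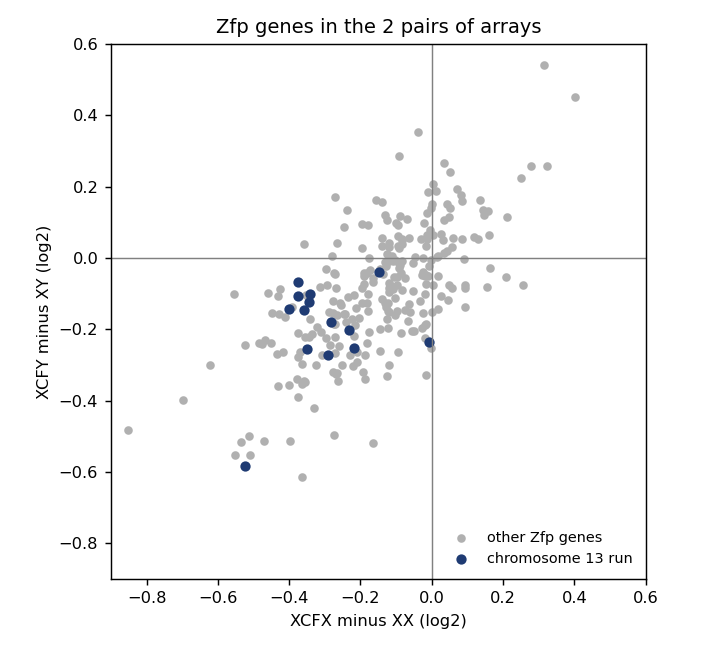
Difference of each of the 277 Zfp genes between the XCFY and XY arrays (log2, vertical axis) against that between the XCFX and XX arrays (log2, horizontal axis), 1 point per gene, with the 14 fitted genes of the chromosome 13 run in dark blue. For 182 genes the point lies at the lower left, where both pairs are lower in CFLARs Tg, and all 14 genes of the run are among them.

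Zfp799, on chromosome 17, had the largest fall. It read 9.18 and 8.98 in the wild-type arrays and 8.33 and 8.50 in the CFLARs Tg arrays. Both CFLARs Tg arrays were well below both wild-type arrays, and the gap between the genotypes exceeded the spread within them. The fall was 0.67 on the log2 scale (SE 0.10, limma adjusted p = 0.0247), or 1.59-fold. Zfp563, a neighbour in the same cluster of chromosome 17, read 8.31 and 8.36 in wild-type and 7.76 and 7.80 in CFLARs Tg. Within each genotype the arrays almost coincided, and the difference was -0.55 (SE 0.06, limma adjusted p = 0.0175). Zfp953, a gene of the chromosome 13 run whose promoter is shown above, read 9.15 and 9.12 in wild-type and 8.63 and 8.54 in CFLARs Tg. Its fall was 0.55 on the log2 scale (SE 0.06, limma adjusted p = 0.0180), and again the genotypes were clearly apart.

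Zfp182, an X-linked gene, had the smallest adjusted p among the Zfp genes. It read 8.56 and 8.59 in wild-type and 8.05 and 8.04 in CFLARs Tg, a difference of -0.53 (SE 0.05, limma adjusted p = 0.0171). The XX-type and XY-type arrays of a genotype read alike for this gene. Zfp975, on chromosome 7, read 8.28 and 8.05 in wild-type and 7.58 and 7.65 in CFLARs Tg, a difference of -0.55 (SE 0.09, limma adjusted p = 0.0294). Zfp707, on chromosome 15, read 8.96 and 8.74 in wild-type and 8.42 and 8.22 in CFLARs Tg, a difference of -0.53 (SE 0.11, limma adjusted p = 0.0409). In Zfp707 the XY-type array was the lower of the 2 in both genotypes, and the genotypes did not overlap.

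Zfp467, a factor known to favour fat cell over bone cell formation, read 9.42 and 9.30 in wild-type and 8.91 and 8.80 in CFLARs Tg. That is a fall of 0.51 (SE 0.08, limma adjusted p = 0.0241) with no overlap. Zfp688 read 9.79 and 9.78 in wild-type and 9.32 and 9.26 in CFLARs Tg, a difference of -0.49 (SE 0.06, limma adjusted p = 0.0186). The arrays of each genotype were close together here too. Zfp524 stood at a higher level than the rest of this group, at 10.48 and 10.54 in wild-type and 10.11 and 9.93 in CFLARs Tg, a difference of -0.49 (SE 0.08, limma adjusted p = 0.0293). Zfp788 read 8.76 and 8.59 in wild-type and 8.14 and 8.29 in CFLARs Tg, a difference of -0.46 (SE 0.09, limma adjusted p = 0.0364). In each of these 10 genes both CFLARs Tg arrays lay below both wild-type arrays, as they did in all 42 that fell. The remaining falls ranged from 0.46 (Zfp697) down to 0.23 (Zfp455) on the log2 scale. The 42 lay on 16 chromosomes.

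Among those smaller falls, 3 are named for what they are known to do, a choice made after their values were seen. Zfp110 encodes NRIF, a partner of the neurotrophin receptor, and averaged 10.04 ± 0.05 (SD, n = 2) in wild-type and 9.71 ± 0.02 in CFLARs Tg (difference -0.33, SE 0.06, limma adjusted p = 0.0316). Zfp354a, or Kid-1, a KRAB gene known from injured kidney, read 8.41 and 8.45 in wild-type and 8.10 and 8.17 in CFLARs Tg (difference -0.29, SE 0.06, limma adjusted p = 0.0393). Zfp30, a KRAB gene linked to neutrophil recruitment in mouse airways, read 8.69 and 8.63 in wild-type and 8.43 and 8.39 in CFLARs Tg (difference -0.25, SE 0.06, limma adjusted p = 0.0474). The call of Zfp30 held in 5 of 11 alternative fits, against 9 for Zfp110 and 8 for Zfp354a. In each of the 3, both wild-type arrays were above both CFLARs Tg arrays.

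The rises were 4. Zfp593, a factor that takes part in the assembly of the large ribosomal subunit, read 8.47 and 8.53 in wild-type and 8.87 and 8.98 in CFLARs Tg, a difference of 0.43 (SE 0.07, limma adjusted p = 0.0256). Zfp131, which joins its zinc fingers to a BTB domain rather than a KRAB domain, read 9.01 and 9.02 in wild-type and 9.32 and 9.56 in CFLARs Tg. The difference was also 0.43 (SE 0.09, limma adjusted p = 0.0442), with the XCFY array the higher of the transgenic arrays. Zfp599 read 8.63 and 8.73 in wild-type and 8.96 and 8.99 in CFLARs Tg (difference 0.29, SE 0.06, limma adjusted p = 0.0424). Zfp948 read 10.70 in both wild-type arrays and 10.98 and 10.96 in CFLARs Tg (difference 0.27, SE 0.05, limma adjusted p = 0.0377). In all 4 the genotypes did not overlap. The rises of Zfp131 and Zfp599 were not called when every gene entered the fit, and that of Zfp948 was not called with the title type as a block.

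**Figure D3:**
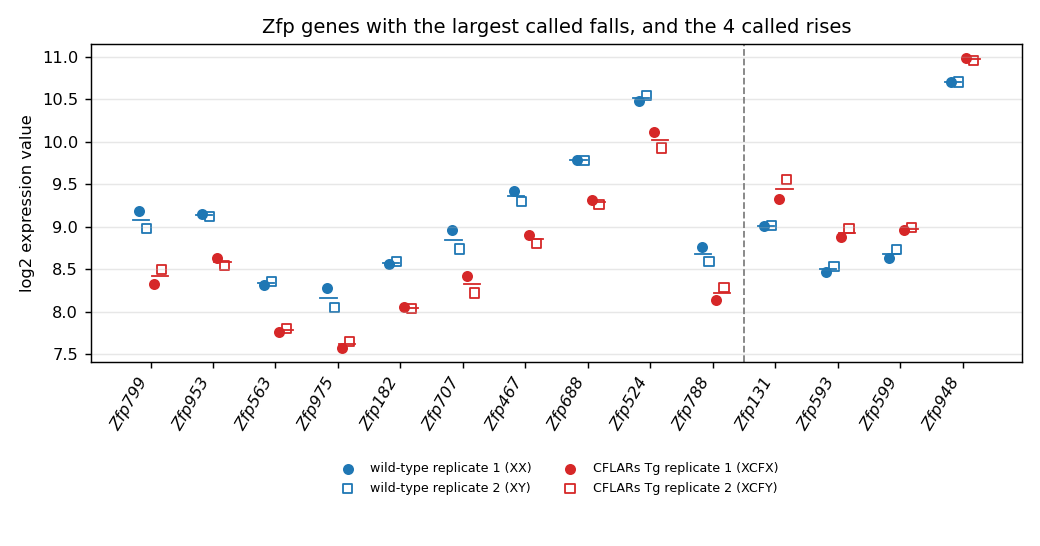
log2 expression value (vertical axis) of the 10 Zfp genes with the largest falls and, right of the dashed line, the 4 that rose, in each array: wild-type in blue, CFLARs Tg in red, circles for the XX-type and open squares for the XY-type arrays, short lines for the mean of 2 arrays. In the first 10 genes both red points lie below both blue points, and in the last 4 both lie above.

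By chromosome, the Zfp genes fitted lay on 20 chromosomes, with 73 on chromosome 7, 31 on chromosome 17, 23 on chromosome 13 and 20 on chromosome 8. Chromosome 7 had 12 genes that fell and 0 that rose (median -0.12, all fitted genes of the chromosome -0.02). Chromosome 17 had 7 that fell and 1 that rose (median -0.15, all genes -0.01), and chromosome 13 had 5 and 1 (median -0.23, all genes 0.00). On these chromosomes 10.6%, 9.38% and 11.0% of all fitted genes fell, near the 10.9% over all chromosomes.

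On chromosome 8 only 1 of 20 Zfp genes fell (median -0.08), on chromosome 11 only 1 of 16 (median -0.08) and on chromosome 2 only 1 of 14 (median -0.02). Of all fitted genes on these chromosomes 10.6%, 9.77% and 10.5% fell. Chromosomes 9 (15 genes), 6 (14), 4 (11), 5 (11), 15 (10) and 18 (10) had medians between -0.15 and -0.09. Chromosome 1, with 3 Zfp genes, had a median of 0.01. The differences between chromosomes were not tested.

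**Figure D4:**
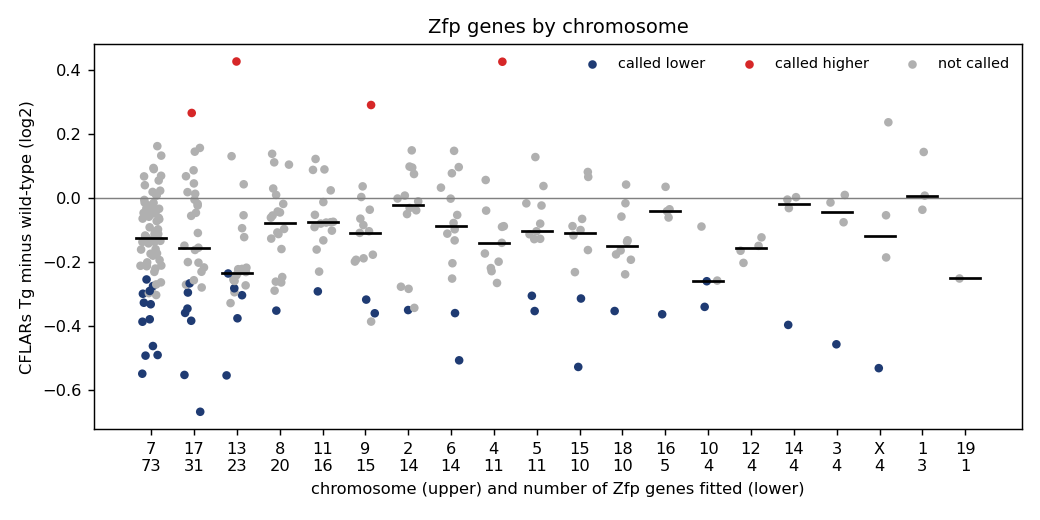
Difference between the genotypes (CFLARs Tg minus wild-type, log2, vertical axis) of each Zfp gene by chromosome (horizontal axis, with the number of Zfp genes fitted under it), with called falls in dark blue, called rises in red and the median as a black line. The median is lowest, among chromosomes with at least 10 Zfp genes, on chromosome 13 at -0.23, and lies nearest to 0 on chromosome 2 at -0.02.

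Zfp genes in runs with several fitted Zfp genes were more often lower in CFLARs Tg than those that were the only fitted gene of their run. Such a single gene may still have Zfp neighbours that were not fitted, as Zfp971, in a run of 4, does. In the 9 runs with at least 5 fitted genes there were 73 Zfp genes, of which 66 (90.4%) had a lower mean in CFLARs Tg, 18 fell and 1 rose (median -0.20). In runs with 2 to 4 fitted genes there were 81, of which 65 (80.2%) were lower, 12 fell and 1 rose (median -0.13). Of the 122 that were the only fitted gene of their run, 88 (72.1%) were lower, 12 fell and 2 rose (median -0.06). The shares that fell were 24.7%, 14.8% and 9.84%, against 10.9% of all fitted genes. In the last of these groups the share was near that of all genes. One gene was not placed. These groups were formed after the differences were known, and the order between them was not tested. In both pairs of arrays the order was the same: the medians were -0.22, -0.13 and -0.09 between XCFX and XX, and -0.15, -0.10 and -0.06 between XCFY and XY.

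The chromosome 13 run, from Zfp712 to Zfp273, holds 23 Zfp genes, of which 14 were fitted. RefSeq gives 10 of the 14 a synonym beginning with Rslcan, for regulator of sex-limitation candidate, a KRAB cluster known for repressing liver genes that differ between the sexes. All 14 had a lower mean in CFLARs Tg, and in all 14 both CFLARs Tg arrays lay below both wild-type arrays. Of all fitted genes, 52.4% had a lower mean and 37.6% had both CFLARs Tg arrays below both wild-type arrays. Their differences ran from -0.09 (Zfp748) to -0.55 (Zfp953), with a median of -0.23. Of the 14, 4 were past the test (28.6%, where 10.9% of all genes fell): Zfp953 (above), Zfp729b, Zfp729a and Zfp455.

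Zfp729a, the member with the highest level, read 10.02 and 10.04 in wild-type and 9.73 and 9.77 in CFLARs Tg (difference -0.28, SE 0.06, limma adjusted p = 0.0368). Zfp729b read 9.29 and 9.17 in wild-type and 8.94 and 8.92 in CFLARs Tg (difference -0.30, SE 0.07, limma adjusted p = 0.0441). As the shared name says, these are close copies, so their values may rest partly on the same RNA. Zfp455 read 8.04 and 8.08 in wild-type and 7.82 in both CFLARs Tg arrays (difference -0.23, SE 0.06, limma adjusted p = 0.0497), just past the threshold, and its call held in 5 of 11 alternative fits. The other 10 had differences between -0.27 (Zfp738) and -0.09 with adjusted p-values between 0.0559 (Zfp456) and 0.317 (Zfp748) in the limma fit. In 1 gene, Zfp457, the XCFX array was nearly level with the XX array, at 8.43 against 8.44, and the gap lay between XCFY (8.37) and XY (8.60).

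**Figure D5:**
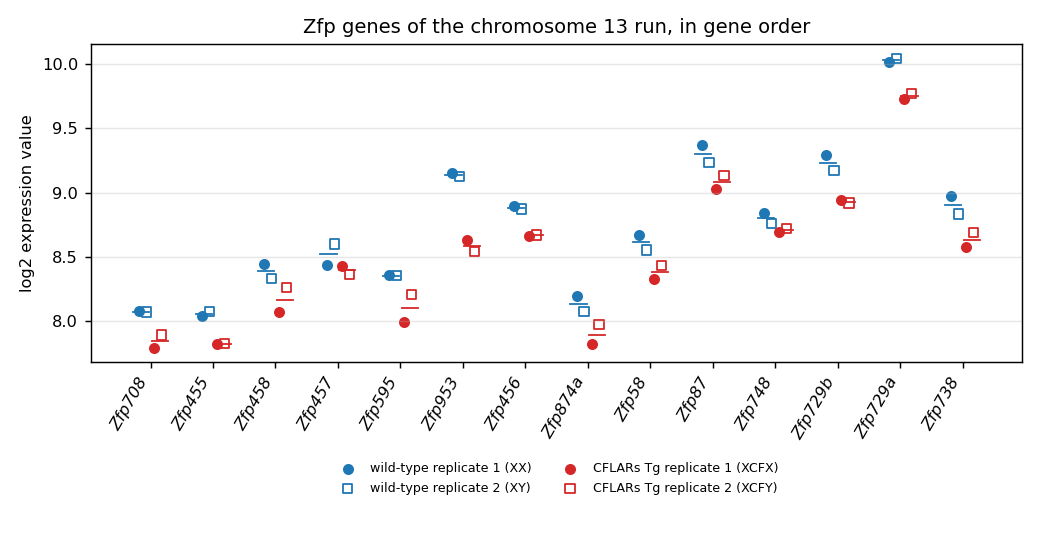
log2 expression value (vertical axis) of the 14 fitted genes of the chromosome 13 run, in gene order along the chromosome, in each array, with wild-type in blue and CFLARs Tg in red, circles for the XX-type and open squares for the XY-type arrays, and short lines for the mean of 2 arrays. In each of the 14 genes both red points lie below both blue points, by the least in Zfp457 and Zfp748.

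Chromosome 17 carries 2 runs of at least 5 fitted genes. In the run from Zfp871 to Zfp563, all 6 fitted genes had a lower mean (median -0.29), as 52.4% of all genes did. Of the 6, 3 fell (50%, against 10.9% of all genes): Zfp799 and Zfp563, described above, and Zfp871. Zfp871, one of the most highly expressed Zfp genes, averaged 11.26 ± 0.01 (SD, n = 2) in wild-type and 10.97 ± 0.05 in CFLARs Tg (difference -0.29, SE 0.06, limma adjusted p = 0.0355). Within this run Zfp952 overlapped between the genotypes, with a difference of -0.05 (SE 0.08).

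The run from Zfp677 to Zfp946 was mixed in a way that followed gene order. Its first 4 fitted genes, Zfp54, Zfp51, Zfp53 and Zfp52, differed by 0.05, -0.02, 0.00 and 0.09 and overlapped between the genotypes. Next in order came Zfp948, which rose. The 8 genes after it, from Zfp983 to Zfp946, all had both CFLARs Tg arrays below both wild-type arrays, as 37.6% of all genes did. Their differences lay between -0.38 (Zfp947) and -0.11 (Zfp944). Of these 8 genes, 4 fell: Zfp947 (7.89 and 7.92 in wild-type, 7.51 and 7.53 in CFLARs Tg), Zfp820, Zfp942 and Zfp943, with limma adjusted p-values between 0.0232 and 0.0486. Over the whole run 30.8% fell, against 10.9% of all genes. This division of the run was seen in the data and was not tested.

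Of the runs on chromosome 7, the one from Zfp579 to Zfp580 had a median of -0.27. It had 3 falls among 5 genes (60%, against 10.9% of all genes), Zfp524, Zfp784 and Zfp579. Zfp784 read 8.53 and 8.56 in wild-type and 8.25 and 8.06 in CFLARs Tg (difference -0.39, SE 0.08, limma adjusted p = 0.0433). Zfp580, at the end of this run, read 9.11 and 9.19 in wild-type and 9.12 and 9.19 in CFLARs Tg, so a neighbour of genes that fell had nearly equal means in the 2 genotypes. The run from Zfp84 to Zfp146, with 11 fitted genes, had a median of -0.07 and 1 fall (9.09%), Zfp30. The run from Zfp180 to Zfp94, with 7, had a median of -0.19 and 0 falls in the limma fit. By array, 6 of the 7 had both CFLARs Tg arrays below both wild-type arrays, where 37.6% of all genes did.

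The promoter letters shown for the chromosome 13 run were then counted elsewhere, on both strands of the RefSeq promoters. Of the 277 Zfp genes, 222 had a promoter entry, and 41 of those (18.5%) held TGGGANNTGTAGT on either strand. Among the other fitted genes 340 of 10859 (3.13%) did, and among all genes with an entry 458 of 27025 (1.69%). Outside the run the letters were found in 29 of 210 Zfp genes (13.8%). They were found in 15 of 54 in the other runs of at least 5 fitted genes (27.8%). Of those that were the only fitted gene of their run, 7 of 95 (7.37%) held them.

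The share of genes that fell was similar with and without the letters, a comparison given without a test. Of the 41 Zfp genes that held them 6 fell (14.6%), and of the 181 without them 29 fell (16.0%) and 2 rose. The medians were -0.17 with and -0.11 without, but the 29 genes with the letters outside the chromosome 13 run had a median of -0.09, with 3 falls (Zfp28, Zfp358 and Zfp606). Promoters of the chromosome 13 run held a median of 8.5 CpG, those of all Zfp genes 17 and those of the other fitted genes 21. A match is a description of letters in this window and no binding was measured.

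Zfp genes with a well-known role lay on both sides of 0. A list of 27 such genes was drawn up with earlier results of these data known. Of these, 24 were fitted, Zfp143 and Zfp91 had no probe set of their own, and Zfp42, a pluripotent cell marker, lay under the filter. Of the 24, 11 were lower and 13 higher in mean, the median was 0.01, and Zfp593 was the only one past the test.

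The KRAB proteins that guard imprinted genes were among the more highly expressed. Zfp57, which keeps DNA methylation at imprinted loci, read 10.58 and 10.46 in wild-type and 10.54 and 10.81 in CFLARs Tg (difference 0.16, SE 0.11, limma adjusted p = 0.356), with the high value in the XCFY array alone. Zfp445, which acts at the same loci, read 10.23 and 10.20 in wild-type and 10.11 and 10.10 in CFLARs Tg (difference -0.11, SE 0.05, limma adjusted p = 0.218). Zfp809, which silences retroviruses through their primer binding site, read 10.40 and 10.35 in wild-type and 10.19 and 10.18 in CFLARs Tg (difference -0.19, SE 0.06, limma adjusted p = 0.0779). Zfp568, which represses a placental transcript of Igf2, read 9.30 and 9.34 in wild-type and 9.18 and 9.04 in CFLARs Tg (difference -0.21, SE 0.07, limma adjusted p = 0.101). In the last 3 the genotypes did not overlap, although none passed the test. Zfp644, a partner of the histone methyltransferases G9a and GLP, overlapped between the genotypes, with a difference of -0.08.

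Among transcription factors of the list, Zfp148 (ZBP-89), a GC-box factor studied in gastrointestinal epithelium, read 10.79 and 10.80 in wild-type and 10.79 and 10.88 in CFLARs Tg, a difference of 0.04. Zfp341, which drives Stat3 transcription, differed by -0.01, and Zfp410, an activator of Chd4, by -0.15. Zfp281 differed by 0.14, Zfp335 by 0.01, Zfp423, of fat cell precursors, by 0.03 and its relative Zfp521 by -0.18. Zfp503 differed by -0.03 and the corepressor Zfp703 by 0.11. Their adjusted p-values in the limma fit lay between 0.143 and 0.942.

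Among genes with roles in RNA, protein and ribosome handling, Zfp598, a ubiquitin ligase that senses collided ribosomes, read 9.39 and 9.42 in wild-type and 9.55 in both CFLARs Tg arrays. The genotypes did not overlap, but the difference of 0.15 (SE 0.05) did not pass the test (limma adjusted p = 0.125). Zfp622, which like Zfp593 takes part in assembly of the large ribosomal subunit, differed by 0.07. The RNA-binding protein Zfp106 differed by 0.15, Zfp326 by 0.04, Zfp638 by 0.00 and Zfp318, which acts on the choice of IgM or IgD transcripts, by -0.16. The SUMO ligase Zfp451 differed by 0.01.

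The 3 most highly expressed Zfp genes did not pass the test. Zfp706, known for its part in the exit of embryonic stem cells from self-renewal, read 12.61 and 12.54 in wild-type and 12.42 and 12.50 in CFLARs Tg (difference -0.12, SE 0.06, limma adjusted p = 0.247). Zfp207 (BuGZ), a spindle protein that binds Bub3, read 11.77 and 11.79 in wild-type and 11.76 and 11.85 in CFLARs Tg (difference 0.02). Zfp384 (CIZ) read 11.31 and 11.36 in wild-type and 11.24 and 11.23 in CFLARs Tg (difference -0.10). The CFLARs Tg arrays were below the wild-type arrays in Zfp706 and Zfp384 and on both sides of them in Zfp207.

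At the threshold on mean level, the members just inside were Zfp974 (mean 7.48, difference -0.30) and Zfp873 (mean 7.50, difference -0.34), both called. Their wild-type means were above the threshold and their CFLARs Tg means below it, which held for no other fitted Zfp gene. Just outside lay Zfp759 (mean 7.47, difference -0.37) and Zfp459 (mean 7.47, difference -0.18). Their wild-type means, 7.66 and 7.56, were also above the threshold, and their CFLARs Tg means, 7.29 and 7.38, below it. In a fit without the filter, 32 of all 344 Zfp symbols were called lower and 3 higher, where 6.70% and 5.31% of all genes were. As shares of the 344 these are 9.30% and 0.872%. The 67 symbols under the filter had a median of -0.07, with 47 lower. Of these, 2 were called lower (2.99%), Zfp758 and Zfp677, and 1 higher (1.49%), Zfp980. Among all genes under the filter 1.26% were called lower and 1.24% higher.

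Factors that work with KRAB zinc finger proteins had a median above 0. A list of 24 corepressor and heterochromatin genes was also drawn up with earlier results known. From this list 21 were fitted, 2 fell and 2 rose, and the median difference over the 22 on the array was 0.12. With 10.9% of all genes falling and 8.44% rising, the counts are near those shares. Trim28 read 10.83 and 10.85 in wild-type and 10.97 and 11.02 in CFLARs Tg (difference 0.15, limma adjusted p = 0.123), and Setdb1 differed by 0.03 (limma adjusted p = 0.803). The falls were those of Chd3 (-0.36), a chromatin remodeller, and Atf7ip (-0.28), a partner of Setdb1. The rises were those of Hells (0.82) and Uhrf1 (0.49), both tied to DNA methylation in dividing cells.

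Other zinc finger families by symbol were mixed. Of 16 Zscan and Zkscan genes, which join a SCAN domain to zinc fingers, 15 were lower in mean, 6 fell and 0 rose, with a median of -0.22. Of 40 Zbtb genes, which carry a BTB domain, 3 fell and 0 rose (median -0.04). Of 14 Klf genes 0 fell and 1 rose (median 0.05), and of 14 Zc3h genes, whose fingers are of the RNA-binding CCCH type, 2 fell and 2 rose (median 0.02). The shares that fell were 37.5% for Zscan and Zkscan, 7.50% for Zbtb and 14.3% for Zc3h, against 10.9% of all genes. Those that rose were 7.14% for Klf and 14.3% for Zc3h, against 8.44% of all genes, and no family was tested. The excluded Zfp36, also a CCCH gene, differed by 0.34 (limma adjusted p = 0.0957).

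In the series as a whole, the array medians lay between 8.31 and 8.33 and the table held 0 missing values. Of a list of 7 enterocyte markers, the 6 fitted (Fabp1, Lct, Alpi, Apoa1, Apoa4 and Vil1) read between 11.0 and 14.3 on all arrays. The other, Sis, lay under the filter on mean level. Cflar differed by 0.08 (limma adjusted p = 0.498) over a probe set that may not match the transgene, so it does not check the genotype. Xist and the Y-linked genes Eif2s3y, Kdm5d and Uty followed the title types. Neutrophil markers were higher in CFLARs Tg, with 5 of the 5 fitted genes of the list past the test (median difference 2.23). The wild-type means of these 5 genes, 6.71 (Cxcr2) to 7.30 (Csf3r), were under the threshold on mean level. Their CFLARs Tg means, 8.74 (Ly6g) to 9.97 (S100a9), were above it. They passed the filter through the CFLARs Tg arrays, so the share of fitted genes past the test depends partly on the filter. The enterocyte list had 0 of 6 fitted genes past the test (median -0.52), and of 2 proliferation markers fitted Top2a rose (0.48). Medians of a list are over its genes on the array, fitted or not, which were 6 for the neutrophil and 7 for the enterocyte list. Median levels of the neutrophil list lay between 6.71 and 6.96 in wild-type and between 8.47 and 9.47 in CFLARs Tg, and those of the enterocyte list between 13.37 and 13.40 and between 12.08 and 13.06. The fibroblast list (median -0.02, 0 of 5 past the test) and the smooth muscle list (median 0.17, 0 of 5) had medians nearer to 0. So did the endothelial list (median -0.10), in which 1 of 3 was past the test, Kdr, which fell (-0.30). Enteroendocrine (median -0.11, 0 of 3), lymphocyte (0.12, 0 of 2 fitted) and enteric neuron and glia markers (-0.05, 0 of 3 fitted) were also nearer to 0. Goblet cell markers (median 0.56, range 0.53 to 0.62, 0 of 3 past the test) and macrophage markers (median 0.34, range 0.04 to 1.22, 0 of 5) had higher means in CFLARs Tg in each fitted gene. In whole tissue, fewer cells of a type and less RNA per cell cannot be told apart, and the part of these cell types in the Zfp values was not tested.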

How the data were processed

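The authors deposited a log2 value for each of 28856 probe sets on each array. How these were summarised, background-corrected and normalized is not given in the sources used here. They were used as deposited. Gene names came from the platform annotation, which gave 1 symbol to 21789 probe sets and several to 1621, and only the former were used. Chromosomes were taken from the RefSeq gene table of GRCm38.p6, matched by gene identifier for all 277 Zfp genes. Neighbours were found by symbol among its protein-coding genes, where 1 of the Zfp genes was not placed. Promoters came from the RefSeq promoter table of the same build.

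Genes under a mean log2 value of 7.48 (the lowest 30%) were left out. The genotypes, with 2 arrays each, were compared in R 4.3.3 using limma 3.58.1 (lmFit and eBayes, no covariates, 2 residual and 2.64 prior degrees of freedom). P-values were adjusted by Benjamini-Hochberg over all 13975 genes, at a threshold of 0.05. "Fell" and "rose" denote genes past it. Levels are log2 values per probe set. A level of 1 gene cannot be set exactly against that of another, since probes differ. The number of arrays limits the precision. Tested on simulated data, the fit called 23 of 100 genes changed by 0.5 and 67 of 100 changed by 1 on the log2 scale, with 6 false calls among the other genes. No other genes were changed there, while 10.9% of all genes fell and 8.44% rose in the data. The Benjamini-Hochberg adjustment depends on that share, so the simulated counts do not give the sensitivity of the fit to the data.

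Genes named are the 10 largest called falls and up to 10 called rises with the genotypes apart, the fitted genes of the list of known roles, the 2 just inside and 2 just outside the threshold on level, and the 3 with the highest level. Others named were chosen after their values were seen. The Zfp genes and the lists were chosen with earlier results of these data known. Alternatives were other filters, normalizations, probe set summaries and variance models, the title type as a block, each array left out, and a minimum difference. No protein table was used here, so KRAB domains were not counted.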

Additional observations from a re-analysis of the deposited data

Results flagged for a closer look

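For 11 of the named Zfp genes, none of them past the test, the difference between the genotypes had opposite signs in the XX-type and the XY-type pair of arrays. The gap between the pairs (XCFY minus XY, less XCFX minus XX, log2) was 0.39 in Zfp57, 0.33 in Zfp644, 0.29 in Zfp451 and 0.23 in Zfp341. It was 0.19 in Zfp638, 0.13 in Zfp503, 0.12 in Zfp326, 0.085 in Zfp148 and 0.077 in Zfp207. In Zfp335 and Zfp622 the gap ran the other way, at -0.17 and -0.19. XCFX minus XX was -0.04 in Zfp57 and -0.25 in Zfp644, while XCFY minus XY was 0.35 and 0.09. The gaps were not tested, since each pair is 1 array against 1 and no residual degrees of freedom are left. Such opposite signs were also seen in 60 of the 277 Zfp genes and in 3232 of the 13975 genes fitted.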

How the results depend on the processing

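The median difference of the Zfp genes kept its sign and lay between -0.12 and -0.11 in every alternative that gives one. Without the filter 30 of the 277 Zfp genes were called lower and 2 higher, and with the lowest 50% of genes left out, which keeps 157 Zfp genes, 24 and 5. As shares, 10.8% and 15.3% of the Zfp genes were lower, against 6.70% and 12.9% of all genes. Of all genes 5.31% and 10.1% were higher. Quantile normalization, median centring, the median of the probe sets and the trend and robust variance gave 40 to 42 lower and 4 higher. In these fits 14.4% to 15.2% of the Zfp genes were lower, against 10.3% to 11.0% of all genes. Of all genes 8.48% to 8.86% were higher in them. With the title type as a block 37 were lower and 3 higher, of which 35 and 3 are among the 42 and 4. The share of Zfp genes called lower with the block, 13.4%, was near the 12.3% of all genes. Of all genes 10.2% were called higher with it. Leaving out each array in turn gave 0 to 89 lower and 0 to 8 higher. With 1 wild-type array the spread comes from the CFLARs Tg arrays alone, and the calls of Zfp genes were lost. With 1 CFLARs Tg array there were more of them. Asking with limma's treat for differences beyond 0.5 on the log2 scale called 0 lower and 0 higher, with 0 also at an unadjusted p under 0.05. Of all genes it called 0.0716% lower and 0.379% higher. The fit with the title type as a block pairs the arrays by title type. No other pairing was possible, since the labels give no replicate numbers that pair the arrays. Of the uncalled named genes, Zfp638 turned to 0.0031 with quantile normalization. With single arrays left out, Zfp638 ranged from -0.054 to 0.052, Zfp341 from -0.077 to 0.057, Zfp335 from -0.036 to 0.053, Zfp503 from -0.066 to 0.0044, Zfp451 from -0.067 to 0.084, Zfp644 from -0.21 to 0.054, Zfp148 from -0.010 to 0.082 and Zfp207 from -0.020 to 0.070. The cause of these changes was not tested.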
